A study of Mus musculus with 6 samples.

Results

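The genes described here encode the initiation, elongation and termination factors of cytosolic translation, 52 genes chosen by name among the 54532 genes of the deposited table. The messenger RNA was that of whole testis of mice on postnatal day 9, with 3 libraries of Ppp6r3 cKO testis and 3 libraries of wild-type testis. Ppp6r3 codes for one of the regulatory subunits that direct protein phosphatase 6 to its substrates, cKO is the labels' term for its conditional knockout, and the labels name neither the Cre line, the deleted exons, the strain nor whether the replicates were separate animals. A p-value here thus speaks only of variation among these 6 libraries, some or all of which may be technical. The study concerns translation in differentiating spermatogonia, and the comparison asked which translation factor transcripts differed in Ppp6r3 cKO testis.

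Translation begins when the small ribosomal subunit, loaded with initiator tRNA and the factors eIF1, eIF1A and eIF3, is recruited to the capped mRNA by eIF4F, the assembly of the cap-binding protein eIF4E, the scaffold eIF4G and the helicase eIF4A. Poly(A)-binding protein on the tail contacts eIF4G, and the eIF4E-binding proteins compete with eIF4G for eIF4E and are released from it when mTORC1 phosphorylates them. The elongation factors eEF1 and eEF2 then deliver aminoacyl-tRNA and move the ribosome along the mRNA, until the release factors end the chain and the ribosome is split. Many of these mRNAs start with a run of pyrimidines, the terminal oligopyrimidine tract, through which mTORC1 controls their own translation. Postnatal germ cells rely heavily on such control, since differentiating spermatogonia and spermatocytes store and release mRNAs in steps.

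The libraries held 15970908 to 16606867 fragments, recovered from the steps between the deposited FPKM values (fragments scaled to exon length and to the size of the library). Ppp6r3 itself (ENSMUSG00000024908) had 15.8, 15.3 and 14.9 FPKM in the Ppp6r3 cKO libraries, against 20.8, 21.3 and 21.005 FPKM in the wild-type libraries. It was lower in all 3 Ppp6r3 cKO libraries (log2 fold change -0.45, SE 0.042, limma adjusted p = 0.000695), with transcripts still present. Ppp6r3 cKO replicate 1 stood apart in base composition: the median deviation of its genes from their mean over the libraries ran from -0.11 (log2) in the lowest of 10 GC bins to 0.13 in the highest, while the other 5 libraries stayed between -0.064 and 0.056 in these 2 bins. In the highest bin Ppp6r3 cKO replicates 2 and 3, at 0.025 and 0.00027, also lay above the wild-type libraries, at -0.024, -0.037 and -0.064. In the lowest bin they lay within the wild-type range. The median log2 fold change between the groups was -0.049 in the lowest bin and 0.089 in the highest. Fold changes without Ppp6r3 cKO replicate 1 are given below for Eef2, Eif4ebp1, Eif4ebp2, Eif5a2, Eif2a, Eif3i, Eif4a2 and Eif4ebp3, and for all 10 members that rose in the plot of fold changes by setting.

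Among the 51 translation factor genes tested, 10 rose in Ppp6r3 cKO testis, none fell and 41 did not pass (limma on log2(FPKM + 0.1), Benjamini-Hochberg adjusted p under 0.05 over all 17658 genes tested). The 10 were Pabpc1, Eef2, Eif4b, Eif4g1, Eif5a2, Eif3f, Eif3a, Eif4ebp2, Eif4ebp1 and Eef2k, and their rises were small, from 0.14 to 0.26 on the log2 scale. Over all genes tested, 7.67% rose and 7.86% fell, against 19.6% of the members that rose. The members are abundant, and abundant genes pass more often: of the 4674 genes with a mean of at least 1000 fragments, which include 45 members and all 10 that rose, 13.3% rose and 9.8% fell. The member Eef1a2 was left out of the test, because it did not reach 10 fragments in 3 libraries.

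The median log2 fold change of the 51 members was 0.033, beside 0.0027 over all genes tested and 0.013 over the genes with at least 1000 fragments. Of the 51, 34 had a fold change above 0 and 17 below. In 16 members all 3 Ppp6r3 cKO libraries lay above all 3 wild-type libraries, and in 8 they lay below; over all genes tested the shares were 18.8% above and 18.2% below, and over those with at least 1000 fragments 27.9% and 22.4%. At an unadjusted p under 0.05, 12 members were higher and 5 were lower, where 15.8% of all genes tested were higher and 15.6% lower. Voom, a limma fit on the recovered fragments, called 11 members higher and 5 lower, where 11% of all genes rose and 12.2% fell. The 5 were Eif3c, Eif4a2, Eif4e, Eif5b and Etf1. For the unadjusted and voom counts, and for the alternative fits below, the shares are of all genes. Abundant genes, which pass more often, were not counted apart there.

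How many members passed depended on single libraries, as it did for all genes. Without Ppp6r3 cKO replicate 1, 9 members rose, 8 of the 10 and Eif2a, where 6.34% of all genes rose. Without Ppp6r3 cKO replicate 2, 6 members and 5.09% of all genes rose, and without replicate 3, 5 members and 5.35%. Without wild-type replicate 1, 4 members and 4.63% of all genes rose, without replicate 2, 3 members and 3.4%, and without replicate 3, 3 members and 3.67%. The share of all genes that rose was thus also below 7.67% in each of these fits. None fell in these 6 fits with limma. Pabpc1, Eef2 and Eif4b passed in all 6, and Eef2k in none of them. After a correction of each library for GC content and length of the genes, 17 members rose, among them all 10, with Eif1, Eif1a, Eif3e, Eif3m, Eef1a1, Eef1b2 and Eef1g added, and Eif5b fell. The same correction brought the share of all genes that rose to 10.11%.

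**Figure D1:**
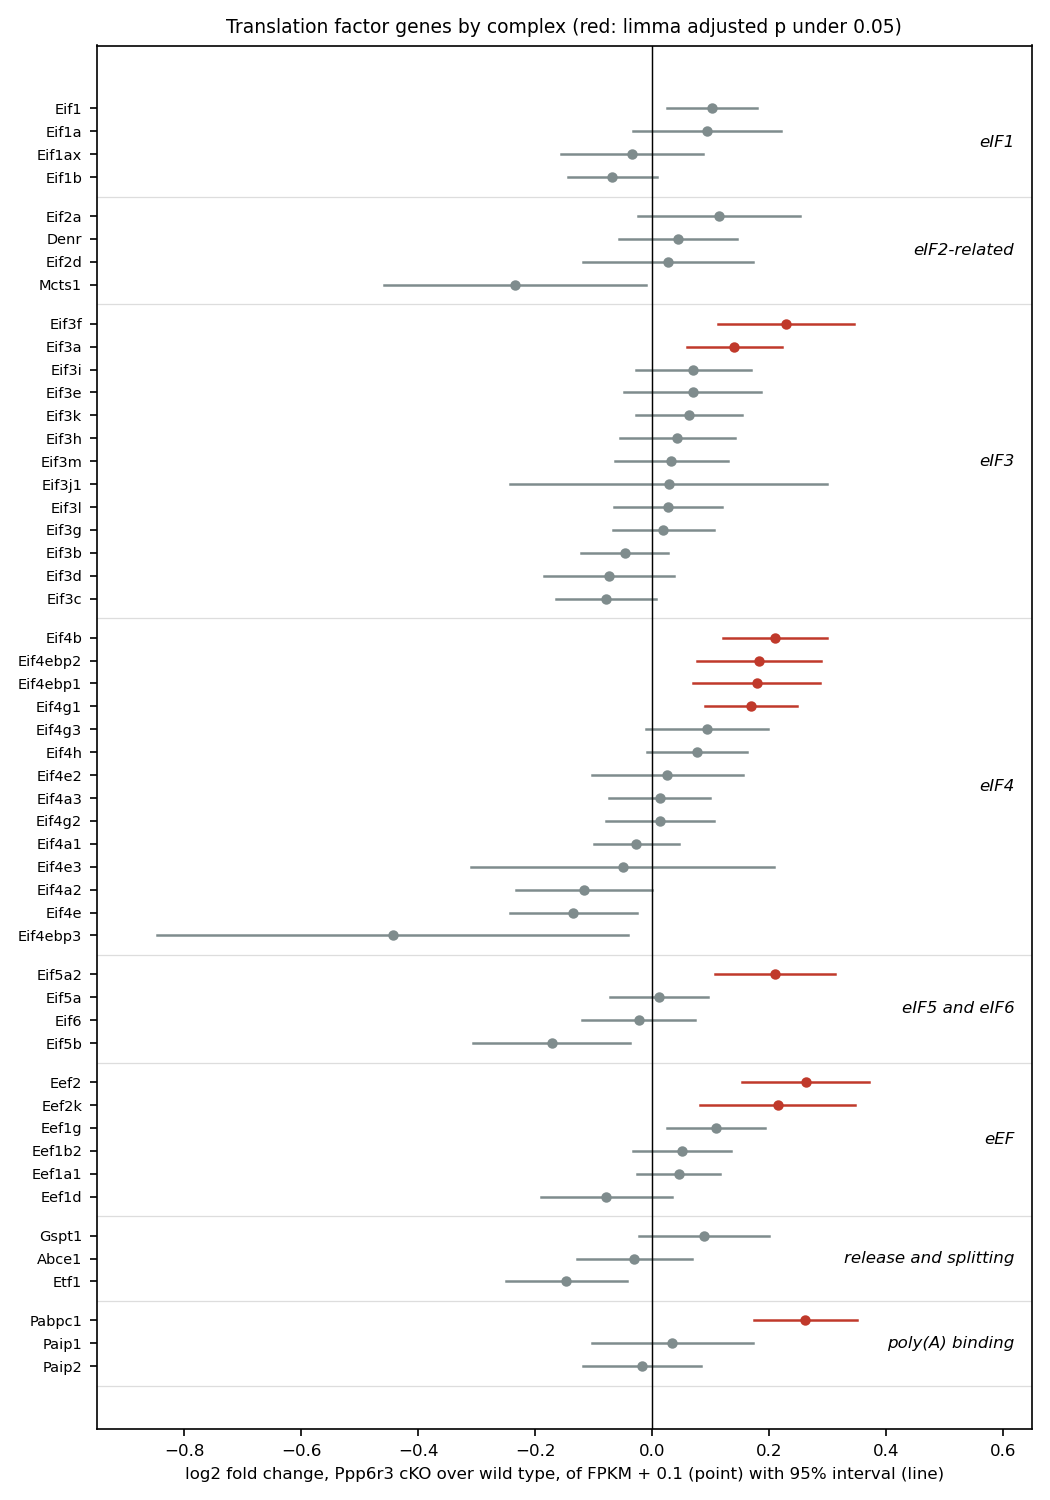
Log2 fold change of FPKM + 0.1 in Ppp6r3 cKO over wild-type testis (horizontal axis) for the 51 members tested, by complex, with the 95% interval of the limma fit. The 10 members in red passed at an adjusted p under 0.05, all of them to the right of 0.

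Pabpc1, which had the smallest adjusted p of the members, encodes the cytoplasmic poly(A)-binding protein that links the tail of an mRNA to its cap (ENSMUSG00000022283, a protein-coding gene at chr15:36595661-36609668 of mm10, minus strand). It had 115.0, 107.6 and 111.4 FPKM in the Ppp6r3 cKO libraries, against 91.1, 92.9 and 94.4 FPKM in the wild-type libraries. The groups did not overlap, and Pabpc1 was 20.0% higher (log2 fold change 0.26, SE 0.038, limma adjusted p = 0.00451). It passed under each of the 18 alternatives, with fold changes from 0.24 to 0.29. The regulators that bind the protein did not pass. Paip1, which stimulates translation through it, averaged 21.3 ± 1.61 FPKM in Ppp6r3 cKO and 20.8 ± 0.548 FPKM in wild type (SD, n = 3 each), and Paip2, which displaces it from the tail, averaged 74.8 ± 2.31 and 75.8 ± 3.18 FPKM in Ppp6r3 cKO and in wild type (SD, n = 3 each).

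Among the elongation factors, Eef2, which moves the ribosome by 1 codon at the expense of GTP, rose by the same measure (ENSMUSG00000034994, chr10:81176631-81182498, plus strand). Eef2 had 1446, 1306 and 1309 FPKM in the Ppp6r3 cKO libraries, against 1158, 1119 and 1104 FPKM in the wild-type libraries. All 3 Ppp6r3 cKO libraries lay above the wild-type ones, with Ppp6r3 cKO replicate 1 the highest, and the difference was 20.1% (log2 fold change 0.26, SE 0.047, limma adjusted p = 0.00974). Without that replicate the log2 fold change of Eef2 was 0.21 and it still passed, as it did under all 18 alternatives.

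Eef2k, the kinase that phosphorylates and inhibits eEF2 (chr7:120842831-120907450, plus strand), was also higher. It had 10.3, 9.30 and 9.60 FPKM in the Ppp6r3 cKO libraries, against 8.27, 8.74 and 8.09 FPKM in the wild-type libraries (log2 fold change 0.21, SE 0.058, limma adjusted p = 0.0417). The groups did not overlap, but the call of Eef2k was lost when any of the 6 libraries was left out, with fold changes from 0.17 to 0.25.

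Eef1a1, which carries aminoacyl-tRNA to the ribosome and was the most abundant member, had 2827, 2910 and 2869 FPKM in the Ppp6r3 cKO libraries, against 2773, 2794 and 2772 FPKM in the wild-type libraries. The groups did not overlap, and the means differed by 3.2%, which did not pass (log2 fold change 0.05, SE 0.031, limma adjusted p = 0.358; it passed after the GC and length correction, with 0.12, and after quantile normalization, with 0.24). Of the subunits that reload eEF1A with GTP, Eef1g averaged 209.0 ± 2.75 FPKM in Ppp6r3 cKO and 193.8 ± 6.08 FPKM in wild type (SD, n = 3 each; limma adjusted p = 0.0802), and Eef1b2 125.2 ± 2.53 and 120.8 ± 3.11 FPKM in Ppp6r3 cKO and in wild type (adjusted p = 0.386). Eef1d had 40.7 ± 1.84 FPKM in Ppp6r3 cKO and 43.0 ± 1.78 FPKM in wild type (SD, n = 3 each; adjusted p = 0.319). Eef1a2, the form of muscle and neurons, stood at 0.0878, 0.270 and 0.0892 FPKM in the Ppp6r3 cKO libraries and 0.202, 0.145 and 0.270 FPKM in the wild-type libraries. Eef1a1 has many processed copies in the genome, so its reads may be shared with them.

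**Figure D2:**
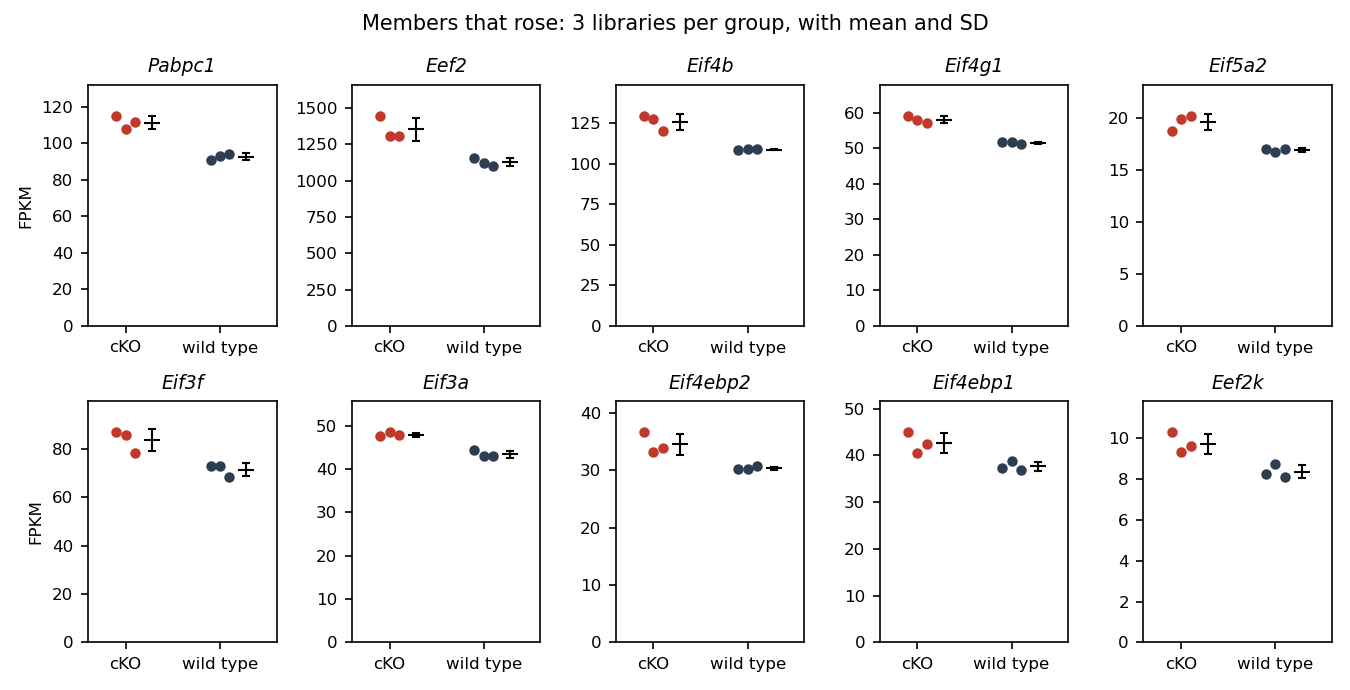
FPKM (vertical axes, from 0) of the 10 members that rose, in each of the 3 Ppp6r3 cKO libraries (red) and the 3 wild-type libraries (dark), with mean and SD as bars. In every panel the red points lie above the dark ones, by 20.1% on average for Eef2 and 10.3% for Eif3a.

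Of the 14 eIF4 genes, 4 rose and 10 did not pass (median log2 fold change 0.019). Of all genes tested 7.67% rose, and 13.3% of those with a mean of at least 1000 fragments. Eif4b, which stimulates the helicase eIF4A (ENSMUSG00000058655, chr15:102073773-102097173, plus strand), had 129.4, 127.7 and 120.4 FPKM in the Ppp6r3 cKO libraries, against 108.5, 108.8 and 108.8 FPKM in the wild-type libraries. The wild-type libraries of Eif4b were almost level, and all 3 Ppp6r3 cKO libraries were above them (15.8% higher on average, log2 fold change 0.21, SE 0.038, limma adjusted p = 0.0105). Its related partner Eif4h, at 57.8, 58.0 and 57.7 FPKM in Ppp6r3 cKO and 55.15, 56.4 and 52.95 FPKM in wild type, did not pass (log2 fold change 0.08, adjusted p = 0.205).

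Of the scaffolds, Eif4g1 (chr16:20668313-20692884, plus strand) had 59.2, 58.0 and 57.3 FPKM in the Ppp6r3 cKO libraries, against 51.9, 51.8 and 51.4 FPKM in the wild-type libraries. It was 12.5% higher with no overlap (log2 fold change 0.17, SE 0.034, limma adjusted p = 0.0150). The call of Eif4g1 was lost without wild-type replicate 1, 2 or 3 (0.16 to 0.17), and the fold change was 0.11 after the GC and length correction, which passed without the replicate block and not with it (limma adjusted p = 0.0706). Eif4g3, a second scaffold of the same kind, was at 11.5, 10.8 and 11.1 FPKM in the Ppp6r3 cKO libraries and 10.3, 10.5 and 10.4 FPKM in the wild-type libraries (limma adjusted p = 0.202). Eif4g2, a relative that lacks the eIF4E-binding part and serves cap-independent initiation, was at 93.1, 98.9 and 98.9 FPKM in the Ppp6r3 cKO libraries and 93.3, 97.0 and 97.8 FPKM in the wild-type libraries (limma adjusted p = 0.859).

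Of the 3 inhibitors of eIF4E, Eif4ebp1 and Eif4ebp2 rose, while Eif4e itself and Eif4ebp3 did not pass. Eif4ebp1 (chr8:27260329-27276674, plus strand) had 44.9, 40.6 and 42.4 FPKM in the Ppp6r3 cKO libraries, against 37.2, 38.8 and 36.9 FPKM in the wild-type libraries (log2 fold change 0.18, SE 0.047, limma adjusted p = 0.0386). Eif4ebp2 (chr10:61428491-61452661, minus strand) had 36.6, 33.1 and 33.9 FPKM in the Ppp6r3 cKO libraries, against 30.2, 30.2 and 30.7 FPKM in the wild-type libraries (log2 fold change 0.18, SE 0.046, limma adjusted p = 0.0332). In neither gene did the groups overlap, and in both Ppp6r3 cKO replicate 1 was the highest library. Eif4ebp1 lost its call without that library (0.14), without Ppp6r3 cKO replicate 3 or without any wild-type replicate (0.16 to 0.20). Eif4ebp2 lost it without Ppp6r3 cKO replicate 3 or any wild-type replicate (0.18 to 0.20), and its fold change was 0.14, still passing, without Ppp6r3 cKO replicate 1.

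Eif4e, the cap-binding protein itself, had 20.5, 22.5 and 21.8 FPKM in the Ppp6r3 cKO libraries, against 23.1, 24.3 and 23.8 FPKM in the wild-type libraries. The Ppp6r3 cKO libraries were all below the wild-type ones, by 8.9%, and the difference did not pass with limma (log2 fold change -0.13, SE 0.048, adjusted p = 0.0950). The third inhibitor, Eif4ebp3, was scarce, with 1.23, 1.93 and 1.92 FPKM in the Ppp6r3 cKO libraries against 2.10, 2.35 and 2.44 FPKM in the wild-type libraries, and rested on as few as 15 fragments in a library (log2 fold change -0.44, SE 0.175, adjusted p = 0.126). Without Ppp6r3 cKO replicate 1 the fold change of Eif4ebp3 was -0.24. The other cap-binding relatives did not pass: Eif4e2, which represses translation, had 17.8, 15.6 and 16.9 FPKM in the Ppp6r3 cKO libraries and 16.9, 16.2 and 16.2 FPKM in the wild-type libraries. Eif4e3 had 2.64, 2.39 and 2.69 FPKM in the Ppp6r3 cKO libraries and 2.97, 2.32 and 2.74 FPKM in the wild-type libraries. Both overlapped between the groups.

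Of the helicases, Eif4a1 was the most abundant eIF4 gene, at 265.9, 265.8 and 269.0 FPKM in the Ppp6r3 cKO libraries and 275.8, 271.7 and 268.2 FPKM in the wild-type libraries, with overlapping groups (log2 fold change -0.03, limma adjusted p = 0.614). Its paralog Eif4a2 had 47.4, 53.9 and 51.8 FPKM in the Ppp6r3 cKO libraries, against 55.3, 54.6 and 55.9 FPKM in the wild-type libraries (log2 fold change -0.12, limma adjusted p = 0.161). Ppp6r3 cKO replicate 1 was the lowest library of Eif4a2, and without it the fold change was -0.064. Eif4a3, the helicase of the exon junction complex, averaged 94.9 ± 2.47 FPKM in Ppp6r3 cKO and 94.0 ± 2.20 FPKM in wild type (SD, n = 3 each; adjusted p = 0.847).

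Of the 13 subunits and associated genes of eIF3, the scaffold that holds the initiation factors on the small subunit, 2 rose and 11 did not pass (median log2 fold change 0.033). Beside them, 13.3% of all genes with a mean of at least 1000 fragments rose. Eif3f, a subunit of the MPN-domain pair (ENSMUSG00000031029, chr7:108934417-108942951, plus strand), had 86.75, 85.9 and 78.25 FPKM in the Ppp6r3 cKO libraries, against 72.8, 72.9 and 68.25 FPKM in the wild-type libraries. It was 17.3% higher, with no overlap (log2 fold change 0.23, SE 0.051, limma adjusted p = 0.0213), and lost its call without Ppp6r3 cKO replicate 2 or wild-type replicate 2 or 3 (0.20 to 0.25). Eif3a, the largest subunit (chr19:60761117-60790658, minus strand), had 47.5, 48.4 and 47.8 FPKM in the Ppp6r3 cKO libraries, against 44.4, 42.9 and 43.1 FPKM in the wild-type libraries (log2 fold change 0.14, SE 0.035, limma adjusted p = 0.0319). Its call was lost without any library except Ppp6r3 cKO replicate 1 (0.13 to 0.16).

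Of the other eIF3 genes, Eif3i was the highest by fold change (0.07, and 0.034 without Ppp6r3 cKO replicate 1; 81.4 ± 3.78 FPKM in Ppp6r3 cKO and 77.5 ± 1.38 FPKM in wild type, SD, n = 3 each) and Eif3c the lowest (-0.08; 127.5 ± 3.17 FPKM in Ppp6r3 cKO and 134.7 ± 3.24 FPKM in wild type, SD, n = 3 each). Their levels spanned a wide range although the subunits form 1 complex. Eif3h was the most abundant, at 203.6 to 223.3 FPKM in Ppp6r3 cKO and 203.2 to 206.4 FPKM in wild type. Eif3j1, which encodes a loosely bound factor, was the least abundant, at 7.88 to 9.59 FPKM in Ppp6r3 cKO and 7.41 to 9.65 FPKM in wild type. Its reads cannot be fully told from those of its close copy Eif3j2, which averaged 2.35 ± 1.02 FPKM in Ppp6r3 cKO and 2.11 ± 2.16 FPKM in wild type (SD, n = 3 each). The fragments of Eif3a were recovered with a shorter length than its exons, 2588 in place of 8731 bases. The exon length did not give whole fragments, and 2588 was the shortest length found that did. Whole multiples of it would do so too, so the length behind its FPKM is not certain, and the same holds for Eif1a and Paip2. Summed over the 13 genes, eIF3 stood at 1082 to 1135 FPKM in Ppp6r3 cKO and 1070 to 1084 FPKM in wild type.

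**Figure D3:**
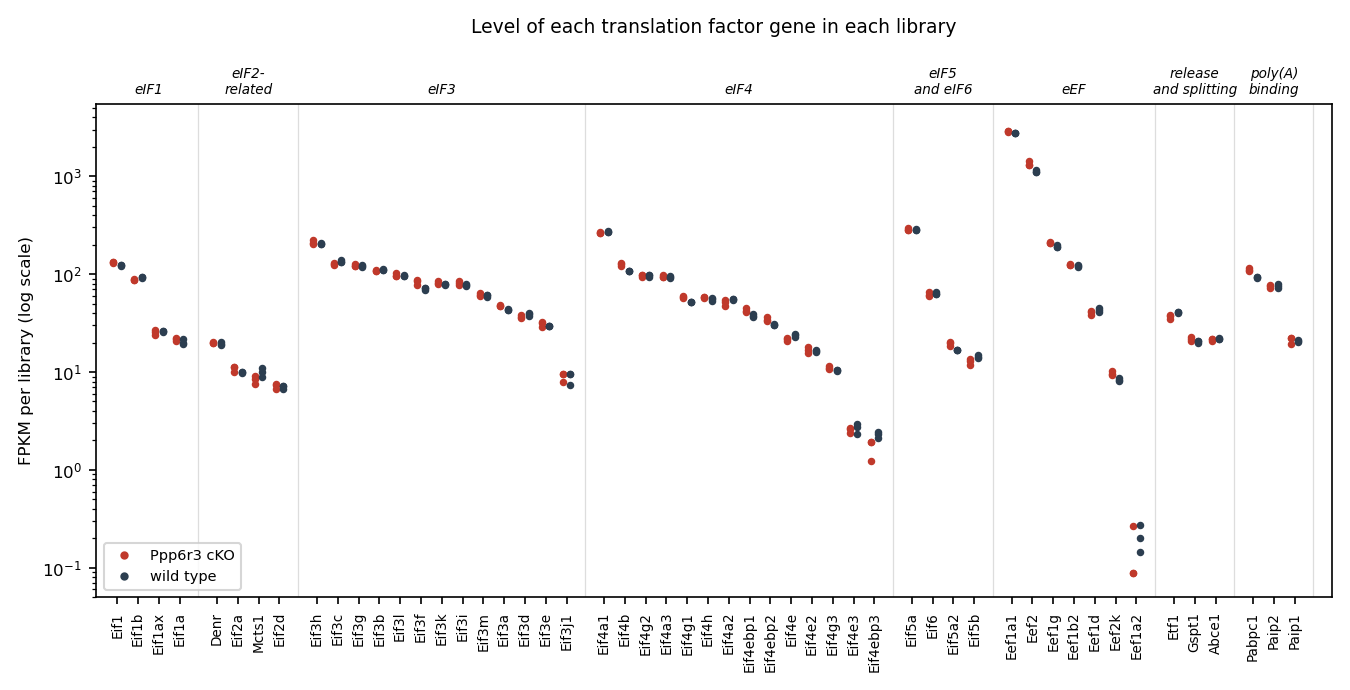
FPKM of the 52 members in each Ppp6r3 cKO library (red, left of each pair) and each wild-type library (dark), on a log scale, ordered by level within each complex. Levels ran from under 0.3 FPKM for Eef1a2 to 2910 FPKM for Eef1a1, a spread far wider than any difference between the groups.

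Start codon selection depends on eIF1 and eIF1A. None of the 4 genes passed with limma or voom, and at an unadjusted p under 0.05 Eif1 was higher. Eif1 had 132.2, 133.6 and 130.0 FPKM in the Ppp6r3 cKO libraries, against 124.1, 123.6 and 120.8 FPKM in the wild-type libraries, without overlap (log2 fold change 0.10, adjusted p = 0.0738; it passed after the GC and length correction, with 0.18). Its paralog Eif1b lay the other way, with 87.6, 88.5 and 87.1 FPKM in the Ppp6r3 cKO libraries against 92.7, 92.9 and 90.4 FPKM in the wild-type libraries (log2 fold change -0.07, limma adjusted p = 0.204), but its fold change was -0.0031 after the GC and length correction. Of the eIF1A genes, Eif1a had 20.5, 22.2 and 22.0 FPKM in the Ppp6r3 cKO libraries and 19.8, 19.3 and 21.5 FPKM in the wild-type libraries. X-linked Eif1ax had 23.7, 25.8 and 26.9 FPKM in the Ppp6r3 cKO libraries and 26.5, 26.2 and 25.4 FPKM in the wild-type libraries. Both overlapped between the groups, and since the 2 genes are nearly identical, reads of one may be counted for the other.

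Eif5a2, an isoform of the hypusine-bearing factor eIF5A that eases the ribosome over difficult peptide bonds, rose (ENSMUSG00000050192, chr3:28781276-28798846, plus strand). It had 18.67, 19.83 and 20.15 FPKM in the Ppp6r3 cKO libraries, against 16.96, 16.65 and 16.99 FPKM in the wild-type libraries (15.9% higher, log2 fold change 0.21, SE 0.045, limma adjusted p = 0.0180). Eif5a2 passed without Ppp6r3 cKO replicate 1 (0.24) and lost its call without any of the other 5 libraries (0.19 to 0.22). The main isoform Eif5a had 297.4, 283.6 and 280.6 FPKM in the Ppp6r3 cKO libraries and 290.3, 281.9 and 282.3 FPKM in the wild-type libraries (log2 fold change 0.01, limma adjusted p = 0.863).

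Eif5b, the GTPase that joins the ribosomal subunits, had 11.9, 13.5 and 13.1 FPKM in the Ppp6r3 cKO libraries, against 14.4, 14.9 and 14.0 FPKM in the wild-type libraries. All 3 were lower, and the difference did not pass (log2 fold change -0.17, SE 0.059, limma adjusted p = 0.0860; voom and the fit corrected for GC and length called it lower). Eif6, which keeps the large subunit from joining early, averaged 62.4 ± 2.51 FPKM in Ppp6r3 cKO and 63.3 ± 1.52 FPKM in wild type (SD, n = 3 each).

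No release or recycling gene passed with limma. Etf1, which encodes the release factor that reads stop codons, came nearest, with 34.9, 38.1 and 37.8 FPKM in the Ppp6r3 cKO libraries against 41.2, 39.9 and 41.5 FPKM in the wild-type libraries (log2 fold change -0.15, SE 0.045, adjusted p = 0.0647). The groups of Etf1 did not overlap, and voom called it lower. Its GTPase partner Gspt1 averaged 21.8 ± 0.947 FPKM in Ppp6r3 cKO and 20.5 ± 0.675 FPKM in wild type, and the ribosome-splitting ATPase Abce1 averaged 21.6 ± 0.698 and 22.0 ± 0.457 FPKM in Ppp6r3 cKO and in wild type (SD, n = 3 each).

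The 4 alternative initiator-tRNA and reinitiation factors did not pass with limma or voom, and Mcts1 was lower at an unadjusted p under 0.05. Eif2a had 9.92, 11.2 and 11.3 FPKM in the Ppp6r3 cKO libraries and 9.77 to 10.1 FPKM in the wild-type libraries (log2 fold change 0.11, limma adjusted p = 0.235). Ppp6r3 cKO replicate 1 lay within the wild-type range, and of the 18 alternatives Eif2a passed in 1, the one without that library, with 0.17. Eif2d averaged 7.18 ± 0.432 and 7.04 ± 0.263 FPKM in Ppp6r3 cKO and in wild type, and Denr averaged 20.1 ± 0.219 and 19.5 ± 0.751 FPKM in Ppp6r3 cKO and in wild type (SD, n = 3 each). Mcts1, the partner of DENR, was at 7.53, 8.52 and 9.19 FPKM in the Ppp6r3 cKO libraries, against 8.82, 9.94 and 11.04 FPKM in the wild-type libraries, with overlap (log2 fold change -0.23, SE 0.098, limma adjusted p = 0.143). The fold change of Mcts1 was -0.094 after the GC and length correction and ran from -0.16 to -0.32 without 1 library. With the replicate block Mcts1 passed as lower (limma adjusted p = 0.0344).

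Summed FPKM over all 52 genes was 7667, 7556 and 7496 at highest, median and lowest in Ppp6r3 cKO and 7215, 7167 and 7113 in wild type. Most of that sum is Eef1a1 and Eef2. By complex, the summed elongation factors stood at 4557 to 4662 FPKM in Ppp6r3 cKO and 4237 to 4303 FPKM in wild type, and eIF4 at 879.0 to 885.7 and 851.3 to 859.3 FPKM in Ppp6r3 cKO and in wild type. The release and splitting genes stood at 76.5 to 82.7 FPKM in Ppp6r3 cKO and 82.7 to 83.7 FPKM in wild type.

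Ratios within a library do not depend on how the library was scaled, but they were not corrected for GC content. For the 10 ratios between paralogs the exact permutation test (2-sided, 3 against 3 libraries) cannot go below p = 0.1, and none is below 0.2 after Benjamini-Hochberg adjustment. Eif1b over Eif1 was 0.663, 0.663 and 0.670 in the Ppp6r3 cKO libraries, against 0.747, 0.752 and 0.748 in the wild-type libraries (exact p = 0.1), a gap many times wider than the spread of either group. Without overlap, Eif1 lay above wild type and Eif1b below, so the ratios could not overlap and the test could give only its lowest p. Eif5a2 over Eif5a was 0.0628, 0.0699 and 0.0718 in Ppp6r3 cKO, against 0.0584, 0.0591 and 0.0602 in wild type (exact p = 0.1), so the second isoform stayed a small part of the pair in both groups. Eif4g2 over Eif4g1 was 1.57, 1.71 and 1.73 in Ppp6r3 cKO, against 1.80, 1.87 and 1.90 in wild type, and Eif4g3 over Eif4g1 was 0.194, 0.187 and 0.194 in Ppp6r3 cKO, against 0.199, 0.203 and 0.202 in wild type (exact p = 0.1 for each). Eif4ebp2 over Eif4ebp1, at 0.810 ± 0.00999 in Ppp6r3 cKO and 0.808 ± 0.0274 in wild type (SD, n = 3 each; exact p = 0.8), differed by less than the spread between libraries.

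A further set of 3 ratios was chosen after the values were seen and was not tested. The summed inhibitors Eif4ebp1 and Eif4ebp2 over Eif4e stood at 3.97, 3.28 and 3.50 in the Ppp6r3 cKO libraries, against 2.92, 2.84 and 2.84 in the wild-type libraries. The groups did not overlap, and Ppp6r3 cKO replicate 1 was the highest. This separation followed from the single genes, since both inhibitors lay above wild type and Eif4e below, each without overlap. Eef2 over Eef1a1 stood at 0.511, 0.449 and 0.456 in Ppp6r3 cKO, against 0.418, 0.401 and 0.398 in wild type, while Eef2k over Eef2 overlapped between the groups, at 0.00719 ± 0.000127 in Ppp6r3 cKO and 0.00742 ± 0.000346 in wild type (SD, n = 3 each).

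**Figure D4:**
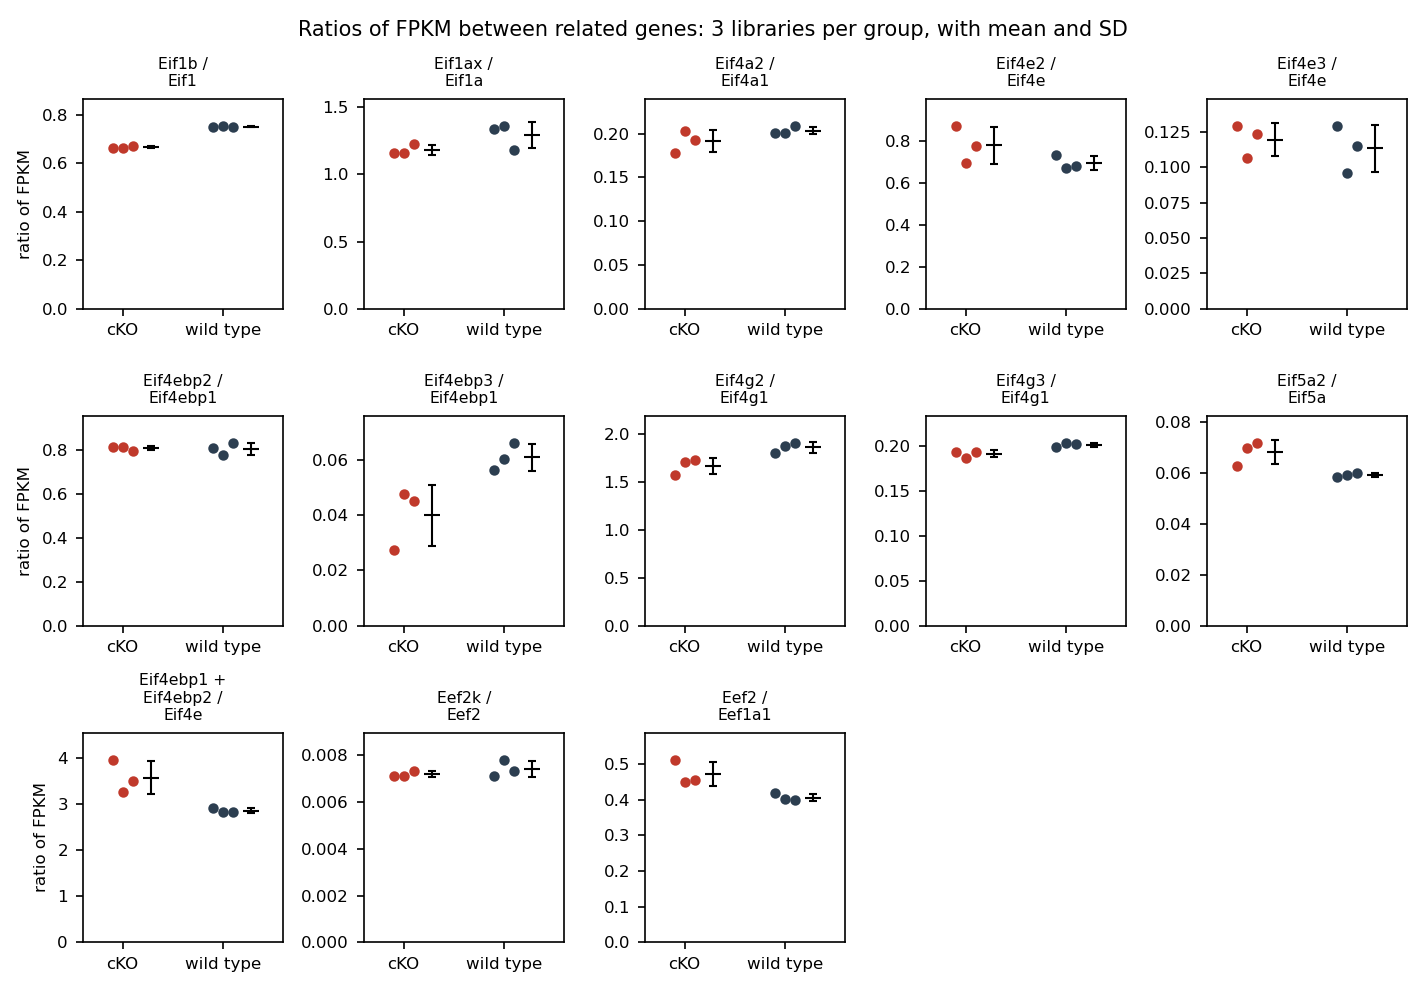
Ratios of FPKM between related genes in each Ppp6r3 cKO library (red) and each wild-type library (dark), with mean and SD as bars and vertical axes from 0. Eif1b over Eif1 reached at most 0.670 in Ppp6r3 cKO and at least 0.747 in wild type, and Eif4ebp1 plus Eif4ebp2 over Eif4e was at least 3.28 in Ppp6r3 cKO and at most 2.92 in wild type. For both ratios the separation followed from the values of the single genes, and the latter ratio was chosen after these were seen.

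Because translation factor mRNAs are known for pyrimidine tracts at their start, the sequence around the RefSeq transcript starts (GRCm38.p6) was searched. The window held 15 bases before the start and 15 from the start on, the motif was a C followed by at least 4 bases that are each C or T, and only the strand of the gene was read. A start was given for 38 of the 52 members. The windows of 4 members that rose and of 3 that did not pass are shown with each run in capitals, as examples of members with and without a run, picked after the search. Paip1 has a second listed start, without a run, that is not shown.
Eif3f, chr7:108934400-108934429, plus strand, rose: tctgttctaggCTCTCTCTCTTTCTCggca
Eif4b, chr15:102073758-102073787, plus strand, rose: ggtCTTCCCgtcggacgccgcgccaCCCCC
Eif4g1, chr16:20672712-20672741, plus strand, rose: cgccagcgcagctccgCCCTCTgcgccggt
Eef2, chr10:81176616-81176645, plus strand, rose: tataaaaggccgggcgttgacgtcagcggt
Eef1a1, chr9:78481710-78481739, minus strand, did not pass: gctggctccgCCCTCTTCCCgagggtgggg
Paip1, chr13:119428585-119428614, plus strand, did not pass: accgtcagtctcgcaCTTTTCTCCggaggg
Eif3l, chr15:79075208-79075237, plus strand, did not pass: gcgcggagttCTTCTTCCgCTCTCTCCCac

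Of the windows shown, a run spans the annotated start in Eif3f, which rose, and in Eef1a1 and Eif3l, which did not pass. In Paip1 a run begins at it. Eef2 had no run in this window. A run was present in 12 of the 38 members (31.6%) and in 3 of the 8 risen members with a start (37.5%), beside 43.0% of the 12336 tested genes with a start. The median log2 fold change was 0.027 for the members with a run and 0.039 for those without, and 0.0028 and 0.00069 for all tested genes with and without one. The difference between these shares was not tested, and a match in the window is a description of letters, not a start mapped in this tissue. A tract at a start outside the window is missed, so a window without a run does not show that the mRNA lacks one.

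Further genes of the translation pathway were counted from lists, beside 7.67% of all genes tested that rose and 7.86% that fell. Of 10 genes of eIF2, eIF2B and the GTPase activator Eif5, 5 fell, 1 rose and 4 did not pass (median log2 fold change -0.18). The largest were Eif2s2, the beta subunit of eIF2 (-0.36), Eif2b3, the gamma subunit of its exchange factor (-0.35) and Eif2s3x, the X-linked gamma subunit (0.27). Its Y-linked counterpart Eif2s3y went the other way and fell (-0.24, limma adjusted p = 0.0207). Eif2s3x averaged 16.9 FPKM in Ppp6r3 cKO and 14.0 FPKM in wild type, and Eif2s3y 14.7 and 17.5 FPKM in Ppp6r3 cKO and in wild type. Of 31 other cytosolic translation factor genes tested, 2 rose, 5 fell and 24 did not pass (median 0.031). Of those that passed, the 3 with the largest fold changes were Eefsec, the elongation factor for selenocysteine, at 14.1, 14.2 and 13.7 FPKM in Ppp6r3 cKO against 18.8, 20.2 and 18.3 FPKM in wild type (log2 fold change -0.44, limma adjusted p = 0.00157), Paip2b (-0.30) and Pabpn1, the nuclear poly(A)-binding protein (-0.25). The 2 that rose were Pabpc4, a relative of Pabpc1 (0.23, adjusted p = 0.0117), and Larp1, which binds pyrimidine-tract mRNAs (0.19, adjusted p = 0.0308). Pabpc4 and Larp1 were picked out here after their values were seen.

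Of 21 tested genes listed with the enzymes that modify translation factors, 3 fell and 18 did not pass with limma (median -0.0078), and voom called 1 higher and 4 lower. Dhps, which starts the hypusination of eIF5A, fell to 27.9, 29.7 and 29.1 FPKM in Ppp6r3 cKO, against 33.7, 33.3 and 32.8 FPKM in wild type (log2 fold change -0.20, limma adjusted p = 0.0135), and Hemk1 (-0.35) and Rps6kb2, an S6 kinase (-0.30), fell too. The second hypusination enzyme, Dohh, overlapped between the groups (log2 fold change 0.09, adjusted p = 0.558). None of 11 mitochondrial translation factors passed with limma (median -0.071, 9 of 11 below 0), while 2 were lower at an unadjusted p under 0.05 and voom called 1 lower. Of all genes tested, 7.86% fell with limma, and voom called 11% higher and 12.2% lower. At an unadjusted p under 0.05, 15.6% of all genes were lower.

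The testis is a mixture, and in bulk RNA fewer cells of a type and less RNA per cell cannot be told apart. The marker counts stand beside 7.67% of all genes tested that rose and 7.86% that fell. All 10 meiotic markers tested fell, with a summed level of 137.7 to 140.7 FPKM in Ppp6r3 cKO and 294.4 to 300.1 FPKM in wild type. Of 8 markers of undifferentiated spermatogonia tested, 4 rose (summed level of the 9 listed 80.5 to 82.9 FPKM in Ppp6r3 cKO and 63.7 to 66.9 FPKM in wild type). Of 6 endothelial markers 5 rose (53.9 to 57.5 FPKM in Ppp6r3 cKO and 33.5 to 37.3 FPKM in wild type), and of 5 macrophage markers 3 rose (118.0 to 126.8 FPKM in Ppp6r3 cKO and 82.6 to 89.0 FPKM in wild type). Of 9 Sertoli markers 2 rose (2041 to 2116 FPKM in Ppp6r3 cKO and 1973 to 2033 FPKM in wild type), and of 6 Leydig markers 1 rose (193.4 to 196.2 FPKM in Ppp6r3 cKO and 173.8 to 181.3 FPKM in wild type). Most of the Sertoli sum was Aard, at 1189 FPKM on average in Ppp6r3 cKO and 1104 in wild type. Most of the Leydig sum was Hsd3b1, at 122.7 and 103.3 FPKM in Ppp6r3 cKO and in wild type. Without overlap, 4 Sertoli markers lay above wild type and 3 below, and 3 Leydig markers above and 2 below. Over all genes tested these shares were 18.8% above and 18.2% below. Voom called 4 Sertoli markers higher and 3 lower. Of 5 peritubular myoid markers 2 fell (500.3 to 528.8 FPKM in Ppp6r3 cKO and 591.6 to 617.6 FPKM in wild type). Most of the myoid sum was Acta2, at 463.3 and 551.7 FPKM on average in Ppp6r3 cKO and in wild type. Of 4 erythroid markers 3 fell (191.7 to 214.0 FPKM in Ppp6r3 cKO and 306.9 to 344.5 FPKM in wild type). Of 6 further germ cell markers 3 fell (333.2 to 369.4 FPKM in Ppp6r3 cKO and 437.8 to 454.6 FPKM in wild type). The widest gap among these 6 was that of Tex101, at 74.6 and 129.3 FPKM on average in Ppp6r3 cKO and in wild type. Without overlap, 1 of the 6 lay above wild type and 4 below. The summed level of each list was above 0 in every library. The translation factors are used by all of these cells, and the part of the changed mixture in their rises was not tested.

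**Figure D5:**
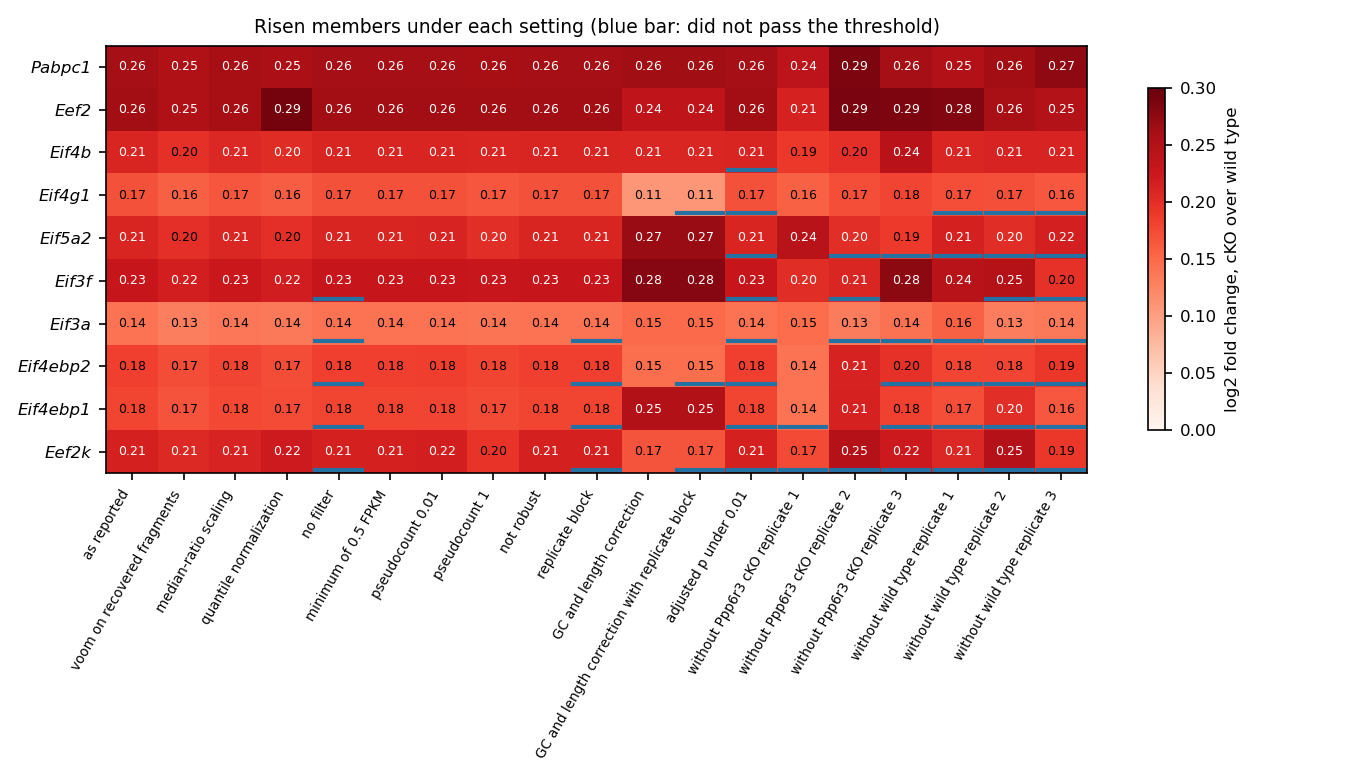
Log2 fold change of the 10 risen members (rows) as reported and under each alternative (columns), with a blue bar where the member did not pass; the lowest value is 0.11, for Eif4g1 after the GC and length correction. Pabpc1 and Eef2 carry no bar.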

How the data were processed

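The file name of the deposited table speaks of raw counts, while the values that the authors deposited are FPKM. Per the series' design text, the authors aligned paired-end reads to mm10 with HISAT2 2.0.5. DESeq2 is listed too in the submitters' processing notes. Per the labels' protocols, poly(A) RNA was made into stranded libraries with a KAPA kit. The counting tool, strand setting and annotation release are not given in the sources used here. Multiplied by its exon length in GENCODE M21, each value gave whole fragments (tolerance 0.01) for 31625 of 32589 genes above 0 (97.0%), and 964 more with another length.

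Genes with at least 10 such fragments in at least 3 libraries were tested with limma 3.58.1 in R 4.3.3 (trend, robust, 2-sided) on log2(FPKM + 0.1), so fold changes of low genes are understated. Benjamini-Hochberg adjustment covered all 17658 genes, and the threshold was 0.05. The members and lists were chosen with earlier results of these data known. Named with values were all passing members, paralog pairs, the extremes of each complex and up to 3 passing genes of each further list. Meiosin and Mtrfr were not matched by symbol. The correction for GC content and length used natural splines with 5 degrees of freedom. No 2 libraries of a group were alike within counting error (chi-square over its degrees of freedom between 2.18 and 4.19), and each was taken as 1 replicate. Python 3.11.15, pandas 2.3.3 and scipy 1.17.1 were used, and limma was tested on simulated data.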

Additional observations from a re-analysis of the deposited data

How the results depend on the processing

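The direction of each of the 10 risen members was the same under all 18 alternatives, and no called value reversed. For many of these settings that was fixed in advance. The filters, the fit that was not robust, the replicate block alone and the stricter threshold leave the fold change itself unchanged. In all 10 the groups did not overlap, so leaving out a library or changing the pseudocount could not turn the direction. The count of members that rose was 10 as reported, 5 when no filter was applied, 6 with a replicate block, 17 after the GC and length correction, 10 with that correction and the block together (chosen after seeing the data; 7 of the reported 10, without Eef2k, Eif4ebp2 and Eif4g1 and with Eef1a1, Eef1g and Eif1), 2 at an adjusted p under 0.01, and 3 to 9 without 1 library. Over all genes the share that rose was 7.67% as reported and, in the same order, 2.27%, 6.2%, 10.11%, 7.27%, 2.37% and 3.4% to 6.34%. Of the members that fell there were none as reported, 5 with voom, 1 with the replicate block (Mcts1) and 1 after the GC and length correction (Eif5b), and none without any 1 library. A stricter threshold can only lower the count. Leaving out a library leaves fewer to test and applying no filter tests more genes, but both also change the fit. For every setting other than the stricter threshold the cause was not tested. Deviations of same-numbered libraries correlated at 0.014, -0.0045 and -0.0073, and not every library correlated best with its own number. With 3 libraries per group these values cannot show or exclude that same-numbered libraries shared a batch. The median over members ran from 0.021 (voom) to 0.048 (GC and length correction), beside 0.033. Median-ratio factors ran only from 1.0006 to 1.0049. Depth limits Eef1a2 and Eif4ebp3, which rest on as few as 3 and 15 fragments in a library.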
